A study of Arabidopsis thaliana with 6 samples.

Results

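Seedlings of an Arabidopsis thaliana line labelled JMJ28np5-OE, 2 libraries, were compared with wild type (WT) seedlings, 2 libraries, over every gene with a test. Both genotypes were of the accession Col-0 and were harvested at an age of 14 days, with long days and 22 °C for growth, and RNA of the seedlings was sequenced. The other genotype, labelled jmj28 and also of 2 libraries, is set beside them for single genes, some gene lists and 1 chromosome segment. OE is read here as overexpression. The labels give neither the promoter behind JMJ28 in the line nor how many insertions or independent lines were used. Of 34262 genes in the authors' deposited table, 10720 had no reads and 23542 had a test. With 2 of the tested genes left out by the rule that set the comparison, 23540 genes remained.

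JMJ28 encodes a protein of the KDM3 group of JmjC-domain demethylases. Enzymes of this group use iron and 2-oxoglutarate to take methyl groups off lysine 9 of histone H3, a mark that in plants goes with silenced chromatin, and the best known member, IBM1, keeps that mark off active genes. JMJ28 itself is known for a part in the flowering response to long days. The question of the comparison is which transcripts differ when the gene is raised.

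The JMJ28np5-OE libraries held 12380403 and 10632893 reads, and the WT libraries held 19693228 and 14309520. These totals were inferred here from the lowest mean levels of single-exon genes and are not recorded read counts. Each deposited table gives, per gene, the mean of the higher of its genotypes, in RPKM (reads scaled to gene length and library size). The value of each library was recovered from these means where possible, and pairs of values below give the deeper library first. A gene is called here where the FDR in the authors' deposited table is under 0.05. Each genotype has 2 libraries, and the labels do not say that they came from separate cultures, so the spread between them may be technical. The authors' test is not named in the sources used here, so which spread its p-values measure is not known. The SD of the log2 ratio between libraries was 0.27 over 7182 genes in JMJ28np5-OE and 0.20 over 10802 genes in WT. The kit did not mark strand, so reads of overlapping genes could not be told apart, and 205 of the higher and 51 of the lower calls overlap another gene model. Overlap is named below at some genes only. Among others, CNGC1, ABI1, SOBIR1 and the uncalled FLC also overlap another gene model.

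JMJ28 (AT4G21430, listed as B160, 12 exons, TAIR10 chr4:11407804-11412279, minus strand) was the gene raised in the line. It had 244 and 307 RPKM in JMJ28np5-OE seedlings, against 6.90 and 6.50 RPKM in WT seedlings. In the authors' deposited table the log2 fold change was 5.38, with an FDR given as 0. No other gene for a JmjC protein was called among the 21 tested, JMJ28 included, and the median log2 fold change of that list was 0.06. None of 29 tested genes for enzymes that place or read methylation on H3K9 or DNA was called, with a median log2 fold change of -0.10. Among the genes within 100 kb of JMJ28, 2 others were called, both for subtilisin-like proteases. ATSBT3.12 (AT4G21326) had 6.14 and 9.36 RPKM in JMJ28np5-OE seedlings, against 3.92 and 3.95 RPKM in WT seedlings, and SBT3.13 (AT4G21650) had 35.1 and 32.7 RPKM in JMJ28np5-OE seedlings, against 23.0 and 25.4 RPKM in WT seedlings. The libraries of the genotypes did not overlap at either gene. Their log2 fold changes in the authors' deposited table were 1.00 (FDR 0.000151) and 0.52 (FDR 0.00556), beside -2.75 and -0.59 for jmj28 over WT. That comparison shares the WT libraries with this one, and by the same FDR 0.208% of its tested genes were higher and 1.1% lower in jmj28.

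By the authors' deposited FDR, 675 genes were higher in JMJ28np5-OE, which is 2.87% of those tested, and 161 genes were lower, 0.684%. Together 3.55% of the tested genes were called. The median log2 fold change was 0.66 among the higher and -0.57 among the lower calls, against 0.00 over all tested genes. A size of 2-fold was reached by 151 higher and 23 lower calls. Since each table holds the higher mean alone, the libraries of both genotypes are known only where jmj28 had the lowest level of the 3 genotypes. That left 410 of the higher calls with 4 libraries. The JMJ28np5-OE libraries were above those of WT in 409 of them, which the calls themselves largely fix, and overlapped in BT2. For the lower calls the WT libraries are known, but those of JMJ28np5-OE only at 2 genes, where both lay below WT. Where libraries of a genotype could not be recovered, its level is given below as the mean that the authors' deposited fold change implies, and no spread is known for it. Calls were more frequent at higher levels, from 0.934% of genes whose higher genotype mean was 0.5 to 2 RPKM to 7.91% of those at 50 RPKM or more, and none of 3494 genes with that mean under 0.5 RPKM was called.

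Of the higher calls, 49.0% lay in 1 stretch of chromosome 5 that holds 4.66% of the tested genes. This segment of 4.6 Mb ran from AT5G48110 to AT5G59810 (TAIR10 chr5:19500988-24100593). It was found by its values, as the sole run of 3 or more neighbouring bins of 100 kb with a median log2 fold change past 0.2 in either direction among 1010 bins of all chromosomes, so its size and its calls are a description without a test. All 46 bins in it had a median between 0.27 and 0.58. Of 1096 tested genes in the segment, 331 were higher (30.2%) and 0 lower. On the rest of chromosome 5, 58 of 4339 tested genes were higher (1.34%) and 20 lower, and on chromosomes 1 to 4, 286 of 17964 were higher (1.59%) and 139 lower.

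**Figure D1:**
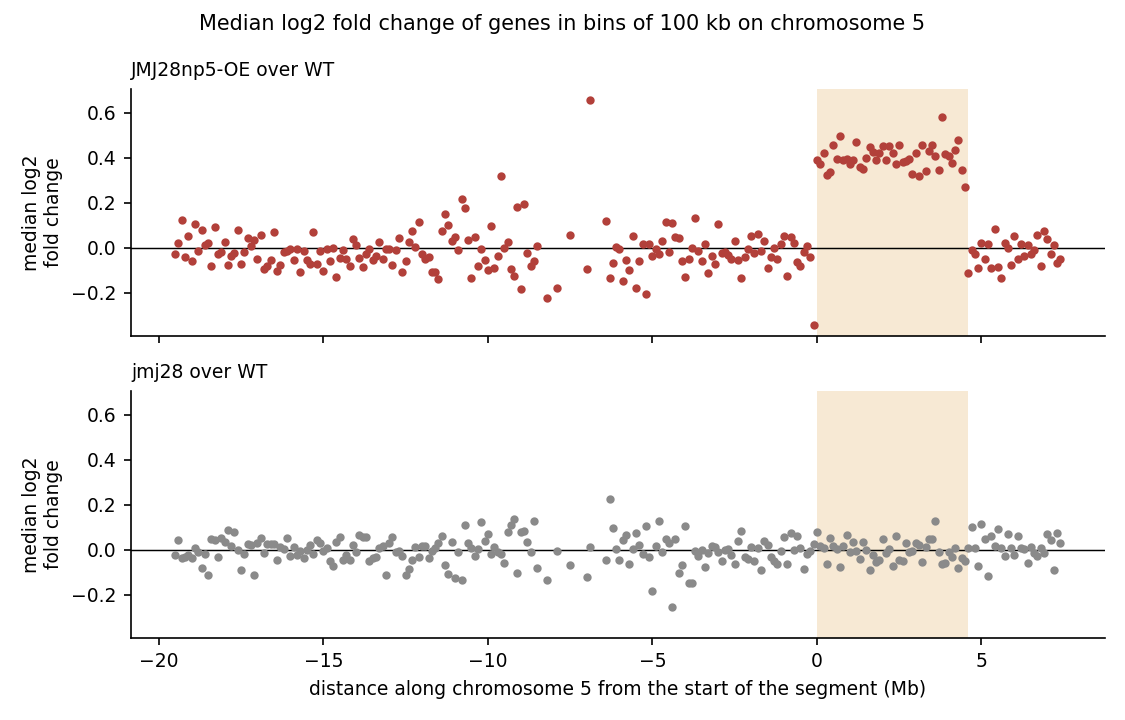
Median log2 fold change of the genes with a genotype mean of at least 5 RPKM in each bin of 100 kb (points) along chromosome 5, against the distance in Mb from the start of the segment (shaded), for JMJ28np5-OE over WT (top) and jmj28 over WT (bottom). The 46 bins of the segment lie between 0.27 and 0.58 in JMJ28np5-OE over WT, and the same bins lie around 0 in jmj28 over WT.

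The shift in the segment was small and shared by nearly all of its genes. Among 698 genes with a genotype mean of at least 5 RPKM, 98.3% had a log2 fold change above 0 in the authors' deposited table. The median was 0.40, which is 1.32-fold, with quartiles of 0.30 and 0.54, against a median of -0.02 outside the segment. The step at either end was sharp. The 10 genes at that level before the start had a median of -0.20 and the first 10 inside 0.37, and the last 10 inside had a median of 0.26 and the 10 after the end -0.11. Both JMJ28np5-OE libraries showed it, whose median log2 ratio to the WT mean was 0.39 (deeper) and 0.45 (shallower) over 306 genes with all libraries recovered, against 0.04 and 0.09 outside. These genes are those of the 698 in which jmj28 had the lowest level, a choice that favours higher values in JMJ28np5-OE. JMJ28np5-OE was above without overlap at 281 of the 306, below at 0, and overlapped at 25, while under the same choice 1255 were above, 279 below and 2332 overlapped of 3866 genes outside. In jmj28 over WT the same 698 genes had a median of -0.01, with quartiles of -0.11 and 0.09. The calls inside were smaller than those outside, with a median log2 fold change of 0.56 against 0.82, and 191 of 331 were under 1.5-fold, against 77 of 344 outside.

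With the segment left out, an alternative added after seeing the data, 344 of 22444 tested genes were higher (1.53%) and 161 lower (0.717%). Where a gene family below had calls in the segment, the number inside or outside it is given.

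The segment holds genes of many functions. Glutamate receptors and cyclic nucleotide channels had 3 higher calls of 5 tested inside and 0 of 35 outside, B-box factors 2 of 3 inside and 0 of 26 outside, and cytochrome P450 genes 2 of 4 inside and 0 of 203 outside. With 30.2% of all genes in the segment called, counts this small are not results about these lists. CNGC1 (AT5G53130), a cation channel of the plasma membrane, had 24.2 and 27.3 RPKM in JMJ28np5-OE seedlings, against 14.1 and 15.6 RPKM in WT seedlings. Its log2 fold change was 0.82 (FDR 5.55e-07) in the authors' deposited table. Of 4 called members of the abscisic acid core list, 3 lay inside. PYL8 (AT5G53160), an abscisic acid receptor, had 54.9 and 73.0 RPKM in JMJ28np5-OE seedlings, against 39.4 and 43.5 RPKM in WT seedlings, and ABI2 (AT5G57050), a phosphatase that the receptors inhibit, had 7.11 and 9.48 RPKM in JMJ28np5-OE seedlings, against 4.65 and 5.30 RPKM in WT seedlings. Their log2 fold changes were 0.65 and 0.76 in the authors' deposited table (FDR 8.24e-05 and 0.00165). Outside, ABI1 alone was called in this list, at 0.42 (FDR 0.0465) in the authors' deposited table.

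Among abundant genes of the segment, CLPC1 (AT5G50920), a chaperone of protein import and turnover in the chloroplast, had 555 and 519 RPKM in JMJ28np5-OE seedlings, against 394 and 377 RPKM in WT seedlings, for a log2 value of 0.50 (FDR 5.09e-07, the authors' deposited table). The libraries of a genotype were close to each other at CLPC1, and the genotypes did not overlap. The B-box factors and the clock lists also had called members inside. COL5, a relative of CONSTANS, had a log2 fold change of 0.73 (FDR 1.59e-05), RVE6, a morning MYB-like factor, 0.66 (FDR 0.00497), ZTL, an F-box photoreceptor, 0.46 (FDR 0.000289), and BOA, an evening factor, 0.67 (FDR 0.000421) in the authors' deposited table.

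Some members stood well above the common shift. FRO6 and FRO7, neighbouring genes for ferric reductases of the shoot and chloroplast, were named after their values were seen. FRO6 (AT5G49730) had 52.3 and 69.8 RPKM in JMJ28np5-OE seedlings, against 27.5 and 22.0 RPKM in WT seedlings, and FRO7 (AT5G49740) had 29.7 and 40.3 RPKM in JMJ28np5-OE seedlings, against 16.9 and 15.2 RPKM in WT seedlings. Their log2 fold changes were 1.33 (FDR 9.66e-12) and 1.15 (FDR given as 0) in the authors' deposited table, beside -0.29 and -0.34 for jmj28 over WT. The transcription factor gene ERF105 (AT5G51190), known from cold responses, had 9.79 and 35.9 RPKM in JMJ28np5-OE and no reads in either WT library. Against a floor of 3 reads over the WT group, 0.0914 RPKM, this is at least 249.7-fold higher, or at least 107-fold with the shallower JMJ28np5-OE library left out, and the FDR was 0.00165 in the authors' deposited table. The gene overlaps another gene model, so that its reads may be shared. TCH4, listed as XTH22, an enzyme that remodels xyloglucan after touch, had a log2 value of 1.72 (FDR given as 0, the authors' deposited table). At the other end, 12 of the 698 genes lay below 0. The lowest of these, CYP81F2, singled out by its value and an enzyme of indole glucosinolate metabolism, had a log2 fold change of -0.52 in the authors' deposited table and was not called (FDR 0.120).

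The genes with the largest changes outside the segment were of mixed function. AT5G22430, for a protein of the pollen Ole e 1 and extensin family, had 5.28 and 10.2 RPKM in JMJ28np5-OE seedlings, against 0.321 and 0.368 RPKM in WT seedlings. AT5G37940, for a zinc-binding dehydrogenase, had 4.50 and 5.31 RPKM in JMJ28np5-OE seedlings, against 0.143 and 0.493 RPKM in WT seedlings. Both were near silence in WT, and their log2 fold changes were 4.49 (FDR 1.14e-12) and 4.06 (FDR 8.45e-13) in the authors' deposited table. Calculated from the recovered libraries, the log2 ratio of AT5G37940 was 3.31 with the deeper WT library left out and 5.10 with the shallower one left out. THI2.1, for an antimicrobial thionin and overlapping another gene model, had 1.76 and 3.42 RPKM in JMJ28np5-OE seedlings, against 0.211 and 0.291 RPKM in WT seedlings (log2 3.36 with FDR 0.000151, the authors' deposited table). TPS03, for a terpene synthase, had 1.85 and 2.70 RPKM in JMJ28np5-OE seedlings, against 0.420 and 0.688 RPKM in WT seedlings (log2 2.09 with FDR 9.47e-06, the authors' deposited table). BAM5, for a cytosolic beta-amylase, had 5.29 and 2.74 RPKM in JMJ28np5-OE seedlings, against 0.461 and 0.926 RPKM in WT seedlings. Its log2 value of 2.57 (FDR 1.73e-08, the authors' deposited table) stood beside a log2 ratio of 1.98 without the deeper JMJ28np5-OE library.

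Some of the largest changes stood beside changes in the same direction in jmj28, whose comparison used the same WT libraries. AT1G75945, of unknown function, had 19.1 and 23.9 RPKM in JMJ28np5-OE, against an implied mean of 0.664 RPKM in WT, and its log2 fold change was 5.04 (FDR given as 0), beside 4.60 for jmj28 over WT in the authors' deposited tables. MRD1 (AT1G53480) had 0.129 and 0 RPKM in JMJ28np5-OE seedlings, against 25.6 and 30.0 RPKM in WT seedlings. Its log2 fold change was -8.47 (FDR given as 0), beside -11.93 for jmj28 over WT in the authors' deposited tables, and the log2 ratio was -7.75 without the shallower JMJ28np5-OE library. It rests on 2 reads in JMJ28np5-OE, against 1165 in WT, so that the level in WT was 394-fold that in JMJ28np5-OE, with an exact 95% binomial interval of 109 to 3259 for counting error alone. HEI10 (AT1G53490), a crossover gene of meiosis that overlaps MRD1, had an implied mean of 0.579 RPKM in JMJ28np5-OE seedlings, against 4.44 and 3.51 RPKM in WT seedlings, and a log2 fold change of -2.76 (FDR 1.14e-10), beside -1.97 for jmj28 over WT in the authors' deposited tables. AT4G20362, a noncoding RNA gene that overlaps another gene model, had log2 fold changes of -1.58 (FDR 0.000787) and, for jmj28 over WT, -1.53 in the authors' deposited tables. In contrast AT2G20870, for a cell wall protein and overlapping another gene model, had 8.73 and 11.7 RPKM in JMJ28np5-OE, against an implied mean of 0.907 RPKM in WT, and a log2 fold change of 3.52 (FDR given as 0), beside 0.06 for jmj28 over WT in the authors' deposited tables.

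**Figure D2:**
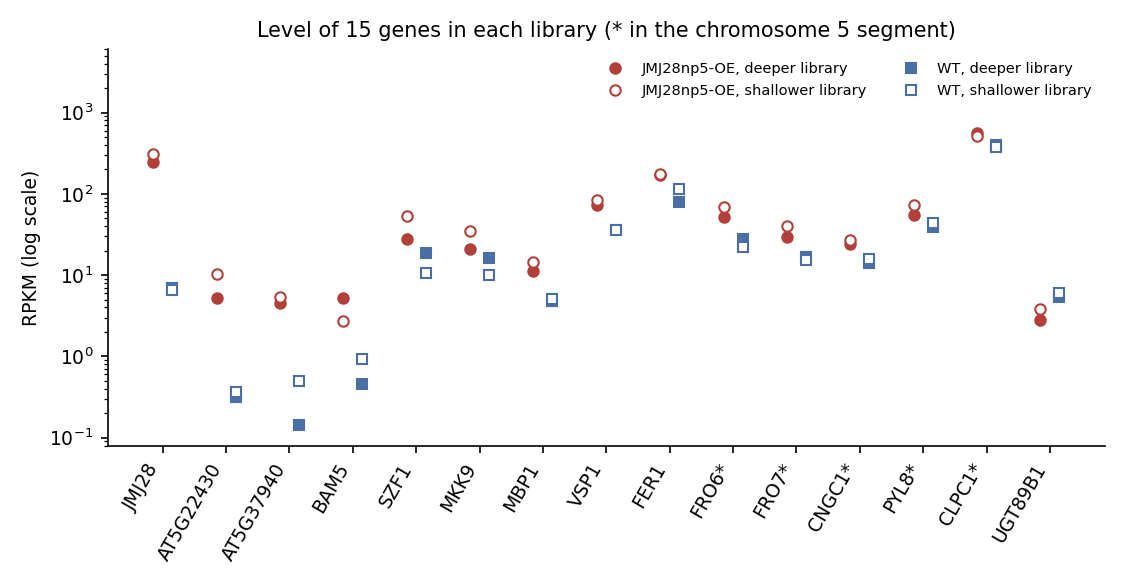
Level in RPKM (log scale) of 15 called genes in each JMJ28np5-OE library (circles) and each WT library (squares), deeper libraries filled and shallower ones open; asterisks mark genes of the chromosome 5 segment. In all 15 genes the libraries of the genotypes do not overlap. UGT89B1 is the gene that is lower in JMJ28np5-OE, and it was also called lower in jmj28 over WT.

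Among transcription factor families the calls were higher and not lower. Over 8 families with 566 tested genes, 41 were higher (7.24%, against 2.87% over all genes), 0 were lower, and 6 of the 41 lay in the segment. The 8 were the WRKY, ERF and DREB, NAC, MYB, bHLH, ZAT and AZF, LBD and B-box families. Heat shock factors and Aux/IAA genes were not counted among them. The ERF and DREB family, which acts in ethylene and stress responses, had 14 higher calls of 105 tested, 13 of them outside the segment, and a median log2 fold change of 0.17. The WRKY family had 5 of 68 (7.35%), the NAC family 6 of 94 (6.38%) and the bHLH family 6 of 110 (5.45%) with 3 outside the segment. The MYB family, with 4 of 111 (3.6%), and heat shock factors and proteins, with 2 of 73 (2.74%), were near the share of all genes. Outside the segment these were 4 of 103 and 1 of 63, where 1.53% of all genes were higher. MYB96 (AT5G62470), a regulator of cuticular wax, had 6.95 and 8.83 RPKM in JMJ28np5-OE seedlings, against 4.51 and 4.34 RPKM in WT seedlings (log2 0.84 with FDR 0.00497, the authors' deposited table).

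Genes that respond within minutes to touch, wounding or cold had the highest share of higher calls of the 73 gene lists. The lists were chosen with earlier results of these data known, so this rank is a description and not a test. Of 26 tested genes of the touch and early stress list, 16 were higher (61.5%, against 2.87% over all genes), 15 outside the segment, and 0 lower. Its median log2 fold change was 1.18 in JMJ28np5-OE over WT, beside -0.93 for jmj28 over the same WT. Among early signalling genes, ACS6 (AT4G11280), for an enzyme of ethylene synthesis, had 18.9 and 42.8 RPKM in JMJ28np5-OE seedlings, against 11.7 and 6.61 RPKM in WT seedlings (log2 1.78 with FDR 3.28e-08, the authors' deposited table), and without the shallower JMJ28np5-OE library the log2 ratio was 1.05. MKK9 (AT1G73500), the 1 called member of 50 tested genes of MAP kinase cascades (2%), had 20.7 and 34.7 RPKM in JMJ28np5-OE seedlings, against 16.3 and 10.2 RPKM in WT seedlings (log2 1.09 with FDR 0.000133, the authors' deposited table). SZF1 (AT3G55980), a CCCH zinc finger gene of salt responses and a member of the touch list, had 27.9 and 53.7 RPKM in JMJ28np5-OE seedlings, against 18.6 and 10.5 RPKM in WT seedlings (log2 1.51 with FDR 1.98e-07, the authors' deposited table). In each of these 3 genes the shallower JMJ28np5-OE library was the highest and the shallower WT library the lowest. Genes for calmodulin-like proteins and calcium-dependent kinases, which carry calcium signals, had 7 higher calls of 75 (9.33%), against 2.87% over all genes. PUB and ATL ubiquitin ligases, with 4 of 117 (3.42%), were near that share. All 4 lay outside the segment, with 116 tested there, where 1.53% of all genes were higher.

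The libraries of a genotype moved with these genes. Outside the segment, 289 of the 344 higher calls (84%) were higher in the shallower than in the deeper JMJ28np5-OE library, with a median log2 ratio between them of 0.39. Inside the segment that ratio was 0.10, over 331 calls, and over all 7184 genes at 5 RPKM or more with both libraries it was 0.06. By the ratio of RPKM levels, 254 of these calls outside the segment passed 1.5-fold. The number was 180 without the shallower and 305 without the deeper JMJ28np5-OE library. These ratios lie a median log2 of 0.02 below the deposited fold change, so the 254 differs from a count by the deposited values. Of the 16 higher calls of the touch list, 15 were higher in the shallower JMJ28np5-OE library and 13 were higher in the deeper WT library. The part of these differences between libraries in the calls was not tested.

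**Figure D3:**
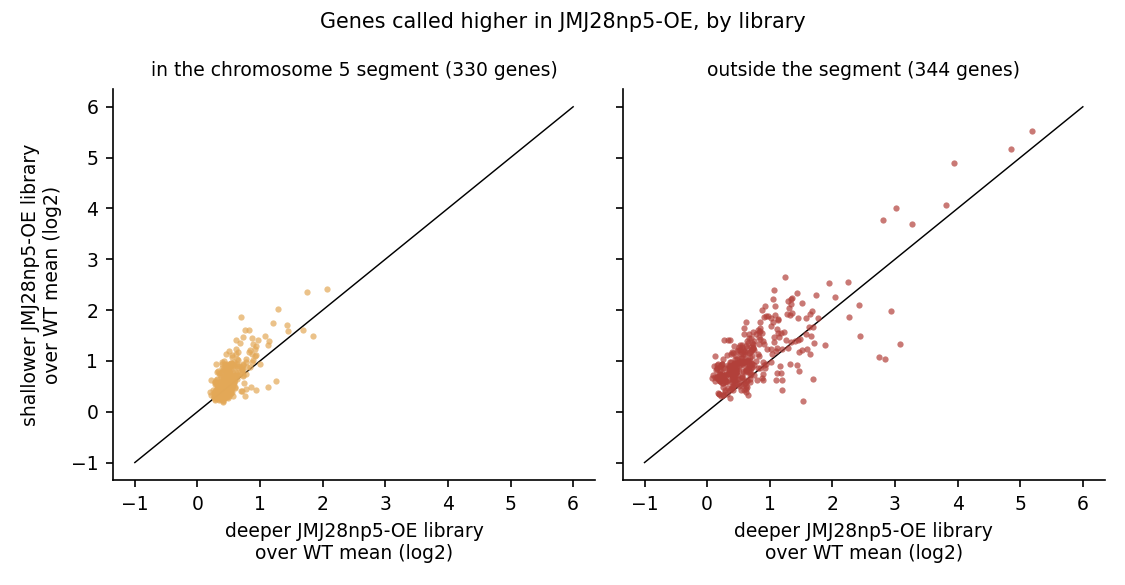
Genes called higher in JMJ28np5-OE, as the log2 ratio of the deeper (x axis) and of the shallower (y axis) JMJ28np5-OE library to the WT mean, for 330 genes in the chromosome 5 segment (left) and 344 outside (right); the line marks equal values. Most points outside the segment lie above the line, at a median of 0.39 between the libraries, and those inside lie closer to it, at 0.10; ERF105, with no reads in WT, is not drawn.

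The promoters shown next are those of genes from the stress, clock and iron groups that hold 3 kinds of motif each, so that the elements can be read beside the values. Each is the 250 bases before the annotated start, 5′ to 3′ on the strand of the gene, read from the RefSeq copy of TAIR10. Capitals mark the motifs searched on both strands: TTGAC (W box of WRKY factors), GCCGCC (GCC box of ERF factors), CCGAC (core of DREB sites), CACGTG (G box of bHLH and bZIP factors), ACGCGT and CGCGTT (sites of the calmodulin-binding CAMTA factors), AATATCT (short evening element), TGGGCC (site II of TCP factors) and AAACCCT (telo box). ACGCGT and CGCGTT can overlap each other. ZAT10 (zinc finger repressor of early stress responses, higher) lies at chr1:9649324-9649573 on the minus strand, PRR7 (clock repressor, listed as APRR7, higher) at chr5:642031-642280 on the minus strand, and OPT3 (iron transporter of the phloem, listed as ATOPT3, lower) at chr4:9250344-9250593 on the minus strand.
ZAT10: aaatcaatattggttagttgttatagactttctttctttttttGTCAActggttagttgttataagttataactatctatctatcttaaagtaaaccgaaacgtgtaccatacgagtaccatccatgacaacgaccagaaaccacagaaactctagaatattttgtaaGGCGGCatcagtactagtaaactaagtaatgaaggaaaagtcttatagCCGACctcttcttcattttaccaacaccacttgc
PRR7: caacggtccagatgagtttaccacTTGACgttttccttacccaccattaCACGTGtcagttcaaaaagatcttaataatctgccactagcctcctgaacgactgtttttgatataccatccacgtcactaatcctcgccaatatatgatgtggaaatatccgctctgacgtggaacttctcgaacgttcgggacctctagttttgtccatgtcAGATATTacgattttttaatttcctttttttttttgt
OPT3: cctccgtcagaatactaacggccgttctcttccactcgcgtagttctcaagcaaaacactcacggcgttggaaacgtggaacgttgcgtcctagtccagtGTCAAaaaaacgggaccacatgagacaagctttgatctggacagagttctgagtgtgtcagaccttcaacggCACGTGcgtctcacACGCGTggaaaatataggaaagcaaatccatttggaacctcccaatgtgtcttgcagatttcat

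ZAT10 had 28.0 and 42.9 RPKM in JMJ28np5-OE seedlings, against 13.7 and 5.74 RPKM in WT seedlings (log2 1.89 with FDR 6.17e-09, the authors' deposited table), and leaving out the deeper WT library gave a log2 ratio of 2.63. PRR7 had 26.6 and 37.0 RPKM in JMJ28np5-OE, against an implied mean of 20.8 RPKM in WT, and a log2 value of 0.64 (FDR 0.000157, the authors' deposited table). Both genes were higher in each JMJ28np5-OE library than the level in WT. OPT3 had a mean of 48.6 RPKM in JMJ28np5-OE as implied by the authors' deposited table, against 85.6 and 71.6 RPKM in WT (log2 -0.67 with FDR 2.99e-05, the authors' deposited table).

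Over the promoters of 23396 tested genes, TTGAC was in 45.3%, and it was in 52.3% of the 344 higher calls outside the segment, in 42.6% of the 331 inside and in 49.1% of 159 lower calls. GCCGCC was in 2.91% of the higher calls outside the segment, against 1.88% of all promoters, and ACGCGT in 4.36%, against 1.84%. The touch list, of 26 promoters, had TTGAC in 65.4% and GCCGCC in 15.4%, which is 4 promoters. TGGGCC, the site II element of growth genes, was in 6.69% of the higher calls outside the segment, against 15.2% of all promoters and 17.2% of the calls inside. It was in 18.5% of uncalled genes at 5 RPKM or more. A match says that these letters are in the window and no more. AATATCT was in 13.4% of the higher calls outside the segment, against 10.1% of all promoters. The share among the higher calls outside the segment was 6.40% for the G box, against 7.12% of all promoters, 11.6% for the DREB core, against 12.4%, and 2.62% for the second CAMTA site, against 2.78%. The telo box was in 4.65% of these calls, against 6.48% of all promoters.

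The called members of the immunity lists were higher, and a tandem cluster stood out by position. The longest run of neighbouring higher calls outside the segment was 5 genes for small TIR-domain proteins on chromosome 1 (AT1G72900 to AT1G72940, TAIR10 chr1:27432178-27443859), relatives of intracellular immune receptors. They were named after their values were seen. AT1G72920 had 15.5 and 29.1 RPKM in JMJ28np5-OE seedlings, against 7.39 and 4.08 RPKM in WT seedlings, and its log2 value of 1.98 (FDR 4.84e-10, the authors' deposited table) was the largest of the 5. The smallest was 0.43 (FDR 0.0381, the authors' deposited table), for TIR (AT1G72930). The copies are similar to each other, so reads could be split between them. In jmj28 over WT the authors' deposited table gives -1.57 and -0.77 for AT1G72920 and TIR. Among receptor kinases, SOBIR1 (AT2G31880), a partner of receptor-like proteins, had 37.5 and 38.5 RPKM in JMJ28np5-OE seedlings, against 24.9 and 25.8 RPKM in WT seedlings (log2 0.61 with FDR 7.53e-08, the authors' deposited table). BIR1, its negative regulator, had 30.1 and 33.1 RPKM in JMJ28np5-OE seedlings, against 20.3 and 21.8 RPKM in WT seedlings (log2 0.61 with FDR 0.000406, the authors' deposited table), but lies in the segment. CRK4, listed as CRK4_1, had 7.53 and 7.59 RPKM in JMJ28np5-OE seedlings, against 4.36 and 4.03 RPKM in WT seedlings (log2 0.86 with FDR 1.68e-05, the authors' deposited table). It was 1 of 2 called cysteine-rich receptor kinases of 43 tested (4.65%). The salicylic acid and intracellular receptor list had 5 higher calls of 28 (17.9%, against 2.87% over all genes) and a median of 0.42. The list of pattern-triggered immunity had 2 of 24 (8.33%) with 1 outside the segment.

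Calls in the jasmonate pathway were higher among both its JAZ repressors and its outputs. Of 13 tested JAZ genes, 3 were higher (23.1%, against 2.87% over all genes) and 0 lower. Their median log2 fold change was 0.82, or 0.42 over the 11 with a genotype mean of at least 1 RPKM. JAZ9 (AT1G70700) had 17.8 and 23.2 RPKM in JMJ28np5-OE seedlings, against 11.9 and 11.6 RPKM in WT seedlings (log2 0.82 with FDR 3.55e-06, the authors' deposited table). Of 28 genes of jasmonate synthesis and output, 3 were higher (10.7%). VSP1 (AT5G24780), a storage protein induced by jasmonate, had 73.0 and 84.8 RPKM in JMJ28np5-OE seedlings, against 36.4 and 35.4 RPKM in WT seedlings (log2 1.16 with FDR given as 0, the authors' deposited table). The spread within each genotype was small beside this difference. A second run of neighbouring calls held 3 genes for jacalin-related lectins that bind myrosinase, JAL5, F-ATMBP and MBP1, and was named after its values were seen. MBP1 (AT1G52040) had 11.2 and 14.4 RPKM in JMJ28np5-OE seedlings, against 4.81 and 5.03 RPKM in WT seedlings (log2 1.41 with FDR 8.20e-09, the authors' deposited table), while JAL5 and F-ATMBP had log2 fold changes of 0.71 (FDR 4.83e-05) and 0.73 (FDR 0.000135) in the authors' deposited table. THI2.1 and TPS03, given above, are also known to respond to jasmonate.

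**Figure D4:**
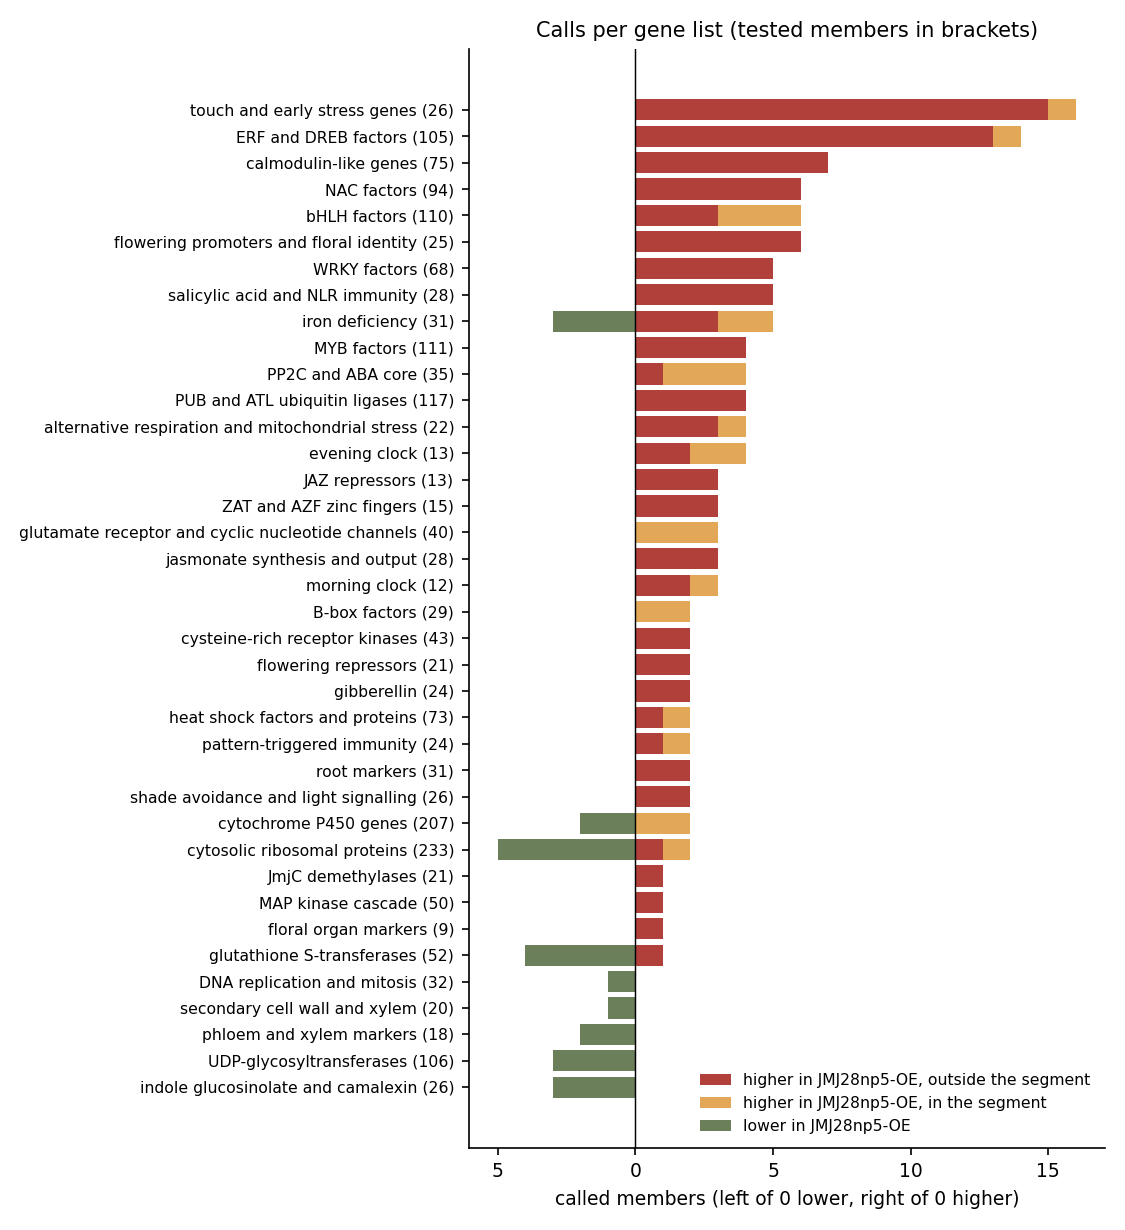
Number of called members of the described gene lists that had any call, to the right of 0 for members higher in JMJ28np5-OE (outside the segment, then in the segment) and to the left for members lower in JMJ28np5-OE; tested members stand in brackets. The touch and early stress list leads with 16 higher calls, and the cytosolic ribosomal protein list has the most lower calls, 5. The lists were chosen with earlier results of these data known.

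Of 25 tested genes that promote flowering or specify floral identity, 6 were higher (24%, against 2.87% over all genes) and 0 lower. The median log2 fold change of this list was 0.42. SEP1 (AT5G15800, listed as SEP1_2), a MADS-box factor of floral organs that overlaps another gene model, had 2.58 and 2.63 RPKM in JMJ28np5-OE seedlings, against 0.893 and 0.774 RPKM in WT seedlings (log2 1.64 with FDR 0.000998, the authors' deposited table). AGL6 (AT2G45650), the MADS-box gene next to SOC1, had 0.613 and 1.21 RPKM in JMJ28np5-OE, against an implied mean of 0.0755 RPKM in WT, and a log2 value of 3.62 (FDR 0.0269, the authors' deposited table), with a log2 ratio of 3.02 without the shallower JMJ28np5-OE library. It was the 1 called gene of 9 floral organ markers tested, 6 of which were under 1 RPKM. The RNA came from bulk seedlings, so fewer cells of a type and less RNA per cell cannot be told apart. FLC, the flowering repressor that vernalization silences, had an implied mean of 0.257 RPKM in JMJ28np5-OE seedlings, against 1.12 and 0.829 RPKM in WT seedlings, and a log2 fold change of -1.90 in the authors' deposited table, but was not called (FDR 0.138). Other repressors were higher. TEM1 (AT1G25560) had 39.5 and 49.3 RPKM in JMJ28np5-OE seedlings, against 35.6 and 23.2 RPKM in WT seedlings, and RAV2 (AT1G68840), also known as TEM2, had 44.1 and 50.3 RPKM in JMJ28np5-OE seedlings, against 35.9 and 19.7 RPKM in WT seedlings. Their log2 fold changes were 0.62 (FDR 0.0128) and 0.78 (FDR 0.00387) in the authors' deposited table, and they were the 2 called genes of 21 tested flowering repressors.

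Called clock genes belonged to both phases of the day. Of 12 morning genes 3 were higher (25%), 2 outside the segment, and of 13 evening genes 4 were higher (30.8%), 2 outside. Over all genes 2.87% were higher. The median log2 fold changes were 0.39 and 0.30, or 0.20 and 0.28 outside the segment. Of the 12 morning genes, 6 were under 1 RPKM. The harvest time of day is not given in the labels. PIF4 (AT2G43010), a bHLH factor of growth in warmth and shade, had 22.1 and 35.7 RPKM in JMJ28np5-OE seedlings, against 19.7 and 19.9 RPKM in WT seedlings (log2 0.57 with FDR 0.0486, the authors' deposited table). PIF5 (AT3G59060) had 12.6 and 21.5 RPKM in JMJ28np5-OE seedlings, against 11.5 and 10.9 RPKM in WT seedlings (log2 0.64 with FDR 0.0373, the authors' deposited table). In both genes the deeper JMJ28np5-OE library lay close to WT. Gibberellin genes had 2 higher calls of 24 (8.33%), and none of 33 photosynthesis genes was called, with a median of 0.02.

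Iron genes moved in both directions, with 5 of 31 tested higher (16.1%), 3 outside the segment, and 3 lower. Over all genes 2.87% were higher and 0.684% lower. FER1 (AT5G01600), for the ferritin that stores iron in the chloroplast and a gene that overlaps another gene model, had 171 and 177 RPKM in JMJ28np5-OE seedlings, against 79.1 and 116 RPKM in WT seedlings (log2 0.86 with FDR 8.63e-09, the authors' deposited table). OPT3, whose promoter is shown above, was among the lower members. Genes of mitochondrial stress had 4 higher calls of 22 (18.2%), 3 outside the segment. PUMP5 (AT2G22500), a dicarboxylate carrier of the inner membrane, had 23.8 and 35.1 RPKM in JMJ28np5-OE seedlings, against 16.9 and 17.3 RPKM in WT seedlings (log2 0.81 with FDR 1.05e-06, the authors' deposited table). PUMP4, a second carrier, had 23.5 and 43.1 RPKM in JMJ28np5-OE seedlings, against 14.8 and 3.52 RPKM in WT seedlings (log2 1.88 with FDR 0.000243, the authors' deposited table), with log2 ratios of 3.24 with the deeper WT library left out and 1.17 with the shallower one left out. Markers of root tissue, where iron is taken up, had 2 higher calls of 31 (6.45%), both for iron uptake, and a median of -0.12. Both were also called higher in jmj28 over the same WT, FRO2 at 1.01 (FDR 0.00900) and IRT1 at 0.97 (FDR 0.00165) in the authors' deposited table. In that comparison 7 iron genes were higher and 0 lower, with a median of 0.40, and 4 root markers were higher and 0 lower, with a median of 0.35.

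Lower genes were fewer, and 0 of the 161 lay in the segment. The longest run of lower neighbours, with 3 genes, lay in a cluster for lipid-transfer-like proteins on chromosome 4. In it AT4G22475 spans AT4G22485 on the opposite strand, so their reads could not be told apart and the run need not be 3 separate changes. AT4G22485, in this run, had an implied mean of 11.1 RPKM in JMJ28np5-OE seedlings, against 33.4 and 39.1 RPKM in WT seedlings, and a log2 fold change of -1.68 (FDR 8.92e-06), and AT4G22505, close by, had an implied mean of 19.8 RPKM in JMJ28np5-OE seedlings, against 47.3 and 52.4 RPKM in WT seedlings, and -1.31 (FDR 5.55e-07) in the authors' deposited table. Both overlap other gene models and resemble each other, so their reads may be shared. AT3G05727, of the pollen coat protein family, had a mean of 59.2 RPKM in JMJ28np5-OE as implied by the authors' deposited table, against 152 and 193 RPKM in WT (log2 -1.52 with FDR 7.81e-07, the authors' deposited table). In jmj28 over WT the authors' deposited table gives log2 fold changes of 0.76, 0.64 and 0.35 for AT4G22485, AT4G22505 and AT3G05727, none of them called. AT4G22475, the member of the run that spans AT4G22485, had -1.19 (FDR 0.000135), beside 0.84 (FDR 0.0257) for jmj28 over WT in the authors' deposited tables.

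Of 26 genes of indole glucosinolate and camalexin metabolism, 3 were lower and 0 higher. For this list and those that follow, the share over all genes was 0.684% lower and 2.87% higher. CYP71A12 (AT2G30750), an enzyme of indole-derived defence compounds, had a mean of 24.7 RPKM in JMJ28np5-OE as implied by the authors' deposited table, against 53.4 and 43.7 RPKM in WT (log2 -0.95 with FDR 7.54e-05, the authors' deposited table). IGMT1 (AT1G21100), an indole glucosinolate methyltransferase, had -0.80 (FDR 0.000986) in the authors' deposited table. FOX2 (AT1G26390), an oxidase of the berberine bridge family named, like FOX1, after its value was seen, had -0.98 (FDR 0.00544, the authors' deposited table) and is next to FOX1, which was also lower. Glutathione S-transferases, which detoxify by adding glutathione, had 4 lower calls and 1 higher of 52, and UDP-glycosyltransferases 3 lower and 0 higher of 106. The medians of these lists were -0.08 and -0.09. GSTU25 had a mean of 7.28 RPKM in JMJ28np5-OE as implied by the authors' deposited table, against 15.5 and 12.7 RPKM in WT (log2 -0.93 with FDR 0.0104, the authors' deposited table). UGT89B1 (AT1G73880), a glucosyltransferase, had 2.84 and 3.81 RPKM in JMJ28np5-OE seedlings, against 5.36 and 5.96 RPKM in WT seedlings (log2 -0.75 with FDR 0.0267, the authors' deposited table). It is 1 of the 2 lower calls with all libraries known, which are known only where jmj28 was lowest. In jmj28 over WT, UGT89B1 was also lower, at -0.92 (FDR 0.00412) in the authors' deposited table.

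Several lists had mostly small negative values with few calls, among them ribosomal proteins, DNA replication, histones and secondary walls. Other lists of growth genes did not, with 43 of 74 SAUR genes, 17 of 32 Aux/IAA genes, 17 of 32 XTH genes and 14 of 28 expansins above 0. Of 233 tested cytosolic ribosomal protein genes, 204 had a log2 fold change below 0, with a median of -0.17, and 5 were lower and 2 higher, 1 of the higher ones in the segment. RPP2C (AT3G28500), for an acidic stalk protein, had 5.78 and 5.74 RPKM in JMJ28np5-OE seedlings, against 1.66 and 2.72 RPKM in WT seedlings, and its log2 value of 1.47 (FDR 0.00145, the authors' deposited table) went against the list. Of 32 genes of DNA replication and mitosis, 30 lay below 0, with a median of -0.21. RNR1 (AT2G21790, listed as RNR1_1), a subunit of ribonucleotide reductase, was the 1 member called, at -0.37 (FDR 0.00511, the authors' deposited table). Of 22 histone genes, 18 lay below 0 with a median of -0.20 and 0 called, and 46 cyclin and CDK genes had a median of -0.12 and 0 called. The secondary cell wall list, with 16 of 20 below 0 and a median of -0.41, had 1 call. This was XCP2 (AT1G20850), a protease of xylem vessels, with an implied mean of 34.0 RPKM in JMJ28np5-OE, against 58.1 RPKM in both WT libraries, and a log2 value of -0.75 (FDR 0.0298, the authors' deposited table). SEOB, a phloem protein gene, was lower at -0.49 (FDR 0.0153, the authors' deposited table), and with XCP2 made up the 2 calls among 18 phloem and xylem markers. None of 19 shoot and leaf markers, 22 guard cell and trichome markers or 12 seed and embryo markers was called. Of the seed and embryo markers 11 were under 1 RPKM, where a change could hardly be called. Of the 73 lists, 50 had a higher call, 13 a lower call and 16 none. Members of a list share libraries and are not replicates of each other, and over all tested genes the median was 0.00.

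**Figure D5:**
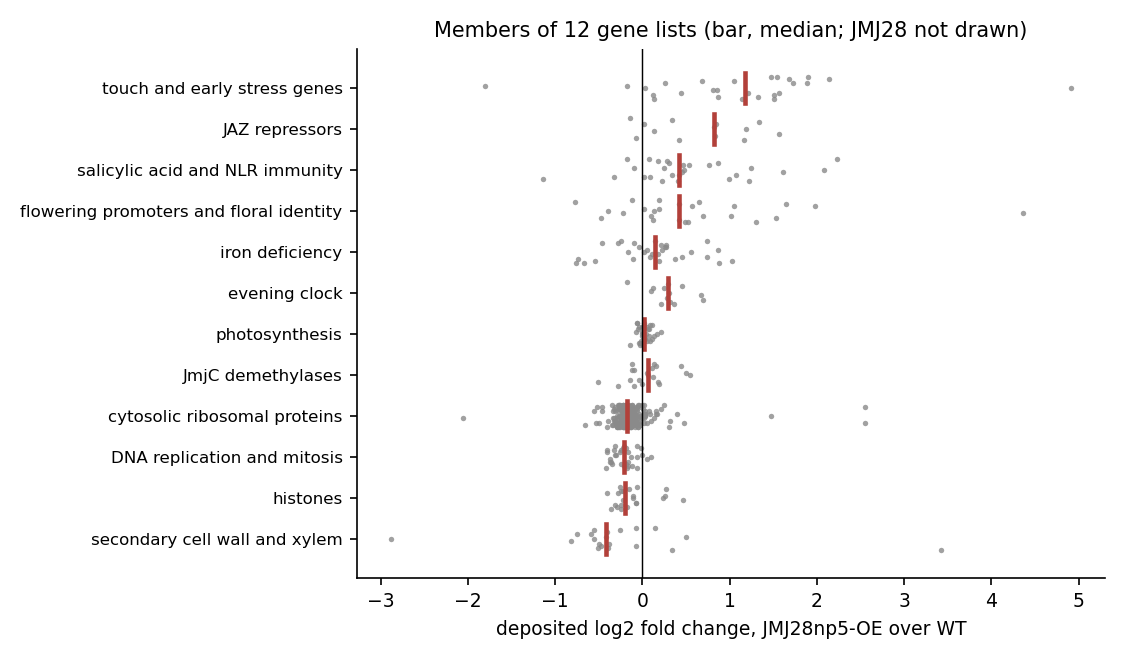
Log2 fold change of JMJ28np5-OE over WT in the authors' deposited table for each tested member (points) of 12 gene lists, with the median of the list (bar); JMJ28 itself is not drawn. The touch and early stress list has a median of 1.18, and the secondary cell wall list, at the bottom, one of -0.41.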

How the data were processed

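Total RNA of seedlings was sequenced, per the labels. The submitters' processing notes name the build TAIR10. Aligner and statistical test were not given in the sources used here, and each table the authors deposited holds per gene the higher genotype mean, whose values are those of RPKM, a log2 fold change, a p-value and an FDR, with no value per library. The planned fit on values per library was therefore replaced by the deposited FDR, with calls at an FDR under 0.05. Library values were recovered here as the whole reads, at the exon length of each gene, that give the deposited means (23506 of 23542 genes, 99.847%). On simulated reads, 2866 of 2999 genes were solved, and 5741 of 5741 solved means returned the true reads. The simulation used the same inferred library totals, so it could not check those totals. From them the log2 ratios with 1 library left out were computed, and for genes with at least 5 RPKM medians were taken in bins of 100 kb.

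Genes were named by the 15 largest changes per direction among calls with a genotype mean of at least 2 RPKM and no overlap of recovered libraries, up to 4 called members per list and direction by FDR, JMJ28, SOC1, FLC, and called genes within 100 kb of JMJ28. Genes named outside this rule were chosen after their values were seen: FRO6, FRO7, the TIR cluster, the lectin run, FOX1, FOX2, BT2 and CYP81F2. The members and the 73 gene lists were chosen with earlier results of these data known. Promoters were read from RefSeq TAIR10.1, where 23397 of 23399 matched genes had the deposited start, end and strand. The promoter of 1 gene is not reported here. Python 3.11.15, pandas 2.3.3, numpy 2.4.6, scipy 1.17.1 and matplotlib 3.10.9 were used.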

Additional observations from a re-analysis of the deposited data

How the results depend on the processing

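The count of higher genes was 675 by the deposited FDR. It was 189 by the deposited Bonferroni value, 441 at an FDR under 0.01, 151 at 2-fold or more, 409 where recovered libraries did not overlap, and 344 without the chromosome 5 segment, a setting chosen after seeing the data. With 1 library left out no test could be rerun, and the range of 410 to 675 counts calls that kept their sign, so that it is set by how many calls have recovered libraries. By the ratio of RPKM levels, 254 higher calls outside the segment passed 1.5-fold, against 180 without the shallower JMJ28np5-OE library. The count of lower genes was 161, and 21, 67 and 23 under the first 3 of these settings. It was 2 where recovered libraries did not overlap, since JMJ28np5-OE libraries were recovered for only 2 lower calls. The JMJ28 log2 value of 5.38 lay between 5.19 and 5.52 with 1 library left out. Of 385 values of the described genes under alternatives, 0 reversed and 34, in 16 genes, moved by over 1.5-fold, 25 of these with a pseudocount and 9 with a library left out. A pseudocount cannot change the sign of a ratio, and the largest changes were named only where recovered libraries did not overlap. The 0 was therefore largely fixed in advance and is not a test of direction.

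No paired analysis was possible because the deposited means carry no replicate number. No gene was called whose higher genotype mean was under 0.5 RPKM, so that changes among genes low in both genotypes were not detectable at this depth, and the spread of most lower calls in JMJ28np5-OE is unknown.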
